A study of Mus musculus with 5 samples.

Results

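The genes described here are 9 genes of sprouting and resting blood vessels, Apln, Aplnr, Esm1, Dll4, Angpt1, Angpt2, Tek, Tie1 and Cdh5, chosen by symbol from the 23284 genes of an RNA sequencing table of mouse melanomas, where all 9 were found. The tumors grew intradermally on the flank of C57BL/6 J mice after injection of B16F1 cells, a murine melanoma line, in 3 libraries, or of B16F1 cells overexpressing the chemokine CXCL5, in 2 libraries (B16F1-CXCL5). No tumor received a treatment, and tumors were taken at 250 to 350 mm³. No label states whether libraries came from different mice, so every p-value reflects the spread among these 5 libraries, which may be technical. Nor is it stated whether the CXCL5 line is a single clone or what promoter drives CXCL5, so CXCL5 and the derivation of the line cannot be told apart. No source used here gives mouse age or sex.

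New vessels grow from existing ones when an endothelial cell at the front, the tip cell, leads a sprout and signals to its neighbours through the Notch ligand DLL4. ESM1 and apelin are secreted by sprouting endothelium, and apelin acts on the receptor APLNR on endothelial cells. The angiopoietins act on TIE2, the receptor kinase encoded by Tek, with TIE1 as its co-receptor. ANGPT1, made mainly by cells around the vessel, activates TIE2 and keeps vessels quiet, whereas ANGPT2, released by endothelium, mostly opposes it. VE-cadherin, encoded by Cdh5, joins endothelial cells and marks the whole endothelium.

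Values are FPKM, fragment counts divided by transcript length and library size, as the authors deposited them. The libraries had 17111 to 17513 genes above 0, and the steps of the low values imply about 27000000 to 28900000 fragments each. Cxcl5 was at 1.86, 3.62 and 1.01 FPKM in B16F1 libraries 1, 2 and 3 and at 83.7 and 85.4 FPKM in B16F1-CXCL5 libraries 1 and 2 (limma adjusted p = 0.0163). Whole tumors were sequenced, so fewer cells of a type and less RNA per cell cannot be told apart. Nor do these values show which cells, endothelial or other, made the RNA of a gene. Endothelium was present in each library, as 17 of 20 pan-endothelial genes reached 1 FPKM in at least 2 libraries and none was listed at 0. B16F1 library 3 stood apart in skin genes, with a summed level of 1212 FPKM over 11 keratinocyte markers against 441 to 657 FPKM in the other libraries.

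Esm1 and Apln, whose secreted products are known from sprouting endothelium, had the largest differences of the 9 genes, 2.03 and 1.80 times the B16F1 mean. The other genes differed less, among them the ligand genes Angpt2, Dll4 and Angpt1 at 1.26, 1.21 and 1.10 times the B16F1 mean. None of the 9 passed the test across the whole table. Of the 7 genes that reached 1 FPKM in at least 2 libraries, 0 passed a limma adjusted p of 0.05, where 0.128% of the 12533 genes tested passed as higher and 0.00798% as lower. Of these 7 genes, 3 had a limma unadjusted p under 0.05 in the higher direction, which 3.57% of all tested genes had. Both B16F1-CXCL5 libraries lay above all B16F1 libraries for 4 of the 7, where 10.8% of tested genes did so. The members were listed with earlier results of these data known, so these counts describe them and do not test the group.

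Esm1 encodes endocan, a proteoglycan secreted by tip cells. Its level was 8.06, 5.17 and 6.95 FPKM in the B16F1 libraries, against 12.6 and 14.7 FPKM in B16F1-CXCL5 libraries 1 and 2. Both B16F1-CXCL5 libraries were thus above every B16F1 library, and the gap between the groups was wider than the spread within either. Mean Esm1 was 6.73 ± 1.46 FPKM (SD, n = 3) in B16F1 and 13.7 ± 1.51 FPKM (SD, n = 2) in B16F1-CXCL5 tumors, 2.03 times as high. On log2(FPKM + 1), the scale of all log2 fold changes here, the groups differed by 0.94 (SE 0.18, 95% interval 0.50 to 1.38). The limma unadjusted p was 0.0022, which placed Esm1 at rank 102 of the 12533 genes, and the limma adjusted p was 0.273. The adjusted p lay between 0.193 and 0.379 in the 10 alternative settings that kept every library. Esm1 maps to the plus strand of chromosome 13, at 113209659 to 113218098 (GRCm38) with 3 exons, inside the span of Gzmk on the other strand. Gzmk, a granzyme of lymphocytes, was listed at 0 in 3 libraries and at no more than 0.0626 FPKM in the others.

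Apln encodes apelin, the secreted peptide ligand of APLNR. It was at 5.05, 5.71 and 5.01 FPKM in the B16F1 libraries, against 7.46 and 11.5 FPKM in B16F1-CXCL5 libraries 1 and 2. The B16F1 libraries were close together, both B16F1-CXCL5 libraries were above them, and these differed from each other by a factor of 1.54. Mean Apln was 5.26 ± 0.395 FPKM (SD, n = 3) in B16F1 and 9.45 ± 2.82 FPKM (SD, n = 2) in B16F1-CXCL5 tumors. The groups differed by 0.72 on the log2 scale (SE 0.18, 95% interval 0.28 to 1.15), and the limma adjusted p was 0.404 (unadjusted 0.0075). B16F1-CXCL5 library 2 carried much of the difference, since without it the log2 fold change was 0.44, and without B16F1-CXCL5 library 1 it was 0.99. Apln maps to the minus strand of chromosome X, at 48025146 to 48034853 (GRCm38), with 3 exons.

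The promoters of these genes are shown because Esm1 and Apln were the 2 members with the largest differences. Each run below is the 250 bases before the transcription start in RefSeq (GRCm38.p6), 5′ to 3′ on the strand of the gene, chr13:113209409-113209658 for Esm1 on the plus strand and chrX:48034854-48035103 for Apln on the minus strand. Capitals mark the letters TTCCTG, which read CAGGAA on the opposite strand, a core bound by ETS factors such as ERG.
Esm1: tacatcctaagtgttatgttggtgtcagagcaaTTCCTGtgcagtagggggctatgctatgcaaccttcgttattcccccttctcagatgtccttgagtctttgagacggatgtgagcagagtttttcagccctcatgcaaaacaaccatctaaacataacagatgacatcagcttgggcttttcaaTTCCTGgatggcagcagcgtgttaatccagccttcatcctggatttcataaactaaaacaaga
Apln: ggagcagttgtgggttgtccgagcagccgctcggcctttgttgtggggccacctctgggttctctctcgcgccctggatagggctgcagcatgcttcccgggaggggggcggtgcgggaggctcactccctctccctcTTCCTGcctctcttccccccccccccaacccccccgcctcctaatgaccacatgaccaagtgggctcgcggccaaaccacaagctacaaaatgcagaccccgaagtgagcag
Esm1 held the core 63 and 217 bases before the start, and Apln held it 112 bases before. Of the 9 genes, 5 had a window in the RefSeq table, and the core was found on either strand in 4 of these, Esm1, Apln, Tek and Tie1, against 25.7% of all 32851 windows of the same length. The core of hypoxia-inducible factors, ACGTG, was in 0 of the 5 windows and in 16.6% of all windows. The forkhead core GTAAACA and the GATA core AGATAA were each in 0 of the 5, against 3.17% and 9.99% of all windows. The RBPJ core TGGGAA of Notch signalling was in the window of Tie1 alone, against 21.6% of all windows. No match overlapped a match of another core in these 5 windows.

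**Figure D1:**
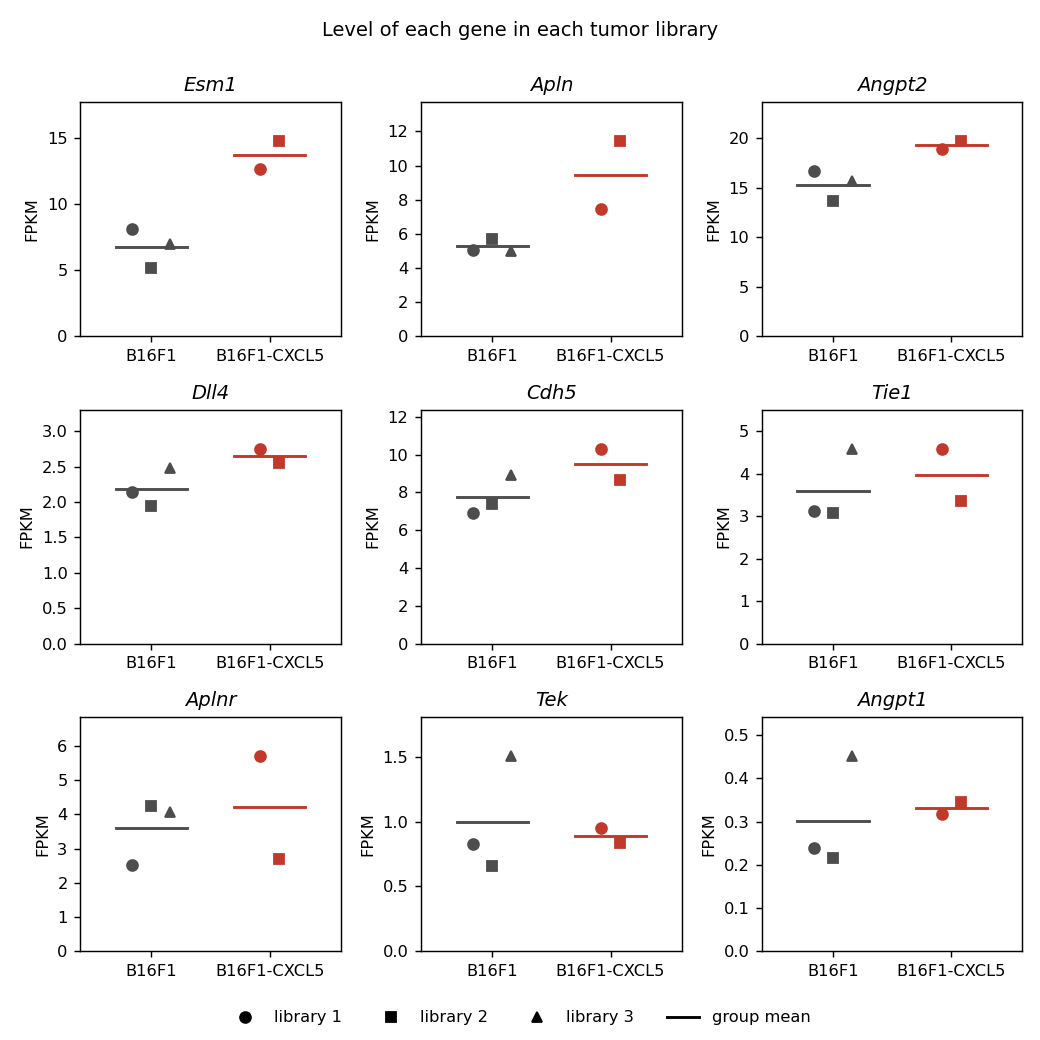
FPKM of each of the 9 genes (vertical axis, from 0) in the 3 B16F1 libraries and the 2 B16F1-CXCL5 libraries, with a point per library and a line at the group mean. For Esm1, Apln, Angpt2 and Dll4 both B16F1-CXCL5 libraries sit above all B16F1 libraries, and for the other 5 genes the groups overlap.

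Aplnr, the receptor of apelin, did not differ in step with its ligand. It was at 2.52, 4.25 and 4.06 FPKM in the B16F1 libraries, against 5.69 and 2.71 FPKM in B16F1-CXCL5 libraries 1 and 2, which enclosed 2 of the 3 B16F1 values. B16F1-CXCL5 library 2 had the highest Apln value of the 5 libraries and the second lowest Aplnr value. The groups differed by 0.14 on the log2 scale (SE 0.30, 95% interval -0.61 to 0.88, limma adjusted p = 0.943). The sign was negative without B16F1 library 1, at -0.05, and without B16F1-CXCL5 library 1, at -0.29. The ratio of Aplnr to Apln was 0.499, 0.743 and 0.809 in the B16F1 libraries, against 0.764 and 0.236 in B16F1-CXCL5 libraries 1 and 2. The ratio was thus lowest in B16F1-CXCL5 library 2, while library 1 of that group lay among the B16F1 values (exact two-sided permutation p = 0.6 on the log2 ratio). Aplnr is a gene of 1 exon in its longest coding transcript and maps to the plus strand of chromosome 2, at 85136225 to 85139923 (GRCm38).

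Dll4, the Notch ligand of tip cells, was slightly higher in both B16F1-CXCL5 libraries. Its level was 2.14, 1.94 and 2.48 FPKM in the B16F1 libraries, against 2.76 and 2.55 FPKM in B16F1-CXCL5 libraries 1 and 2. The groups did not overlap, but B16F1 library 3 and B16F1-CXCL5 library 2 were close to each other. The groups differed by 0.20 on the log2 scale (SE 0.13, 95% interval -0.11 to 0.51, limma adjusted p = 0.721). Against Cdh5 in the same library Dll4 was nearly level, with a ratio of 0.284 ± 0.0243 (SD, n = 3) in B16F1 and 0.281 ± 0.0194 (SD, n = 2) in B16F1-CXCL5 tumors. Dll4 maps to the plus strand of chromosome 2, at 119325784 to 119335962 (GRCm38), and its start overlaps Gm14207 on the other strand, which was at 0.321 FPKM or less.

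Of the angiopoietins, Angpt2 was the most abundant of the 9 genes and Angpt1 the least. Angpt2, the TIE2 ligand released by endothelium, was at 16.6, 13.6 and 15.7 FPKM in the B16F1 libraries, against 18.9 and 19.7 FPKM in B16F1-CXCL5 libraries 1 and 2. Both B16F1-CXCL5 libraries were above all B16F1 libraries, by a margin that was smaller than the range of the B16F1 values. The groups differed by 0.32 on the log2 scale (SE 0.10, 95% interval 0.07 to 0.57), and the limma adjusted p was 0.463 (unadjusted 0.0215). Angpt2 maps to the minus strand of chromosome 8, at 18690263 to 18741562 (GRCm38), inside the span of Mcph1 on the other strand. Mcph1 was at 5.34 to 6.72 FPKM in B16F1 and at 5.63 and 5.95 FPKM in B16F1-CXCL5 libraries. The libraries kept the strand, but no source used here says whether quantification used it, so fragments of such gene pairs may not be told apart.

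Angpt1, the TIE2 agonist, was at 0.238, 0.215 and 0.452 FPKM in the B16F1 libraries, against 0.318 and 0.345 FPKM in B16F1-CXCL5 libraries 1 and 2. The B16F1-CXCL5 values lay between B16F1 library 1 and B16F1 library 3, so the groups overlapped. These levels rest on an estimated 24 to 53 fragments per library, with a counting error of about 20.3% at the lowest. Angpt1 was under the 1 FPKM minimum in every library, and in the fit of 18751 genes without that minimum, of which 0.128% passed, its log2 fold change was 0.04 with a 95% interval from -0.19 to 0.27 (limma adjusted p = 0.957). Angpt2 exceeded Angpt1 in every library, by factors of 69.9, 63.4 and 34.7 in B16F1 and of 59.5 and 57.2 in B16F1-CXCL5 tumors. The lowest factor was that of B16F1 library 3, where Angpt1 was highest, and the groups overlapped (exact two-sided permutation p = 1). Angpt1 maps to the minus strand of chromosome 15, at 42424723 to 42676977 (GRCm38).

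The Tie receptors overlapped between the groups. Tek, the angiopoietin receptor TIE2, was at 0.826, 0.655 and 1.50 FPKM in the B16F1 libraries, against 0.947 and 0.835 FPKM in B16F1-CXCL5 libraries 1 and 2. Only B16F1 library 3 reached 1 FPKM, and both B16F1-CXCL5 values fell within the range of the B16F1 values. In the fit without the minimum the log2 fold change of Tek was -0.05 with a 95% interval from -0.56 to 0.45 (limma adjusted p = 0.971), and without B16F1 library 3 it was 0.12 (limma adjusted p = 0.716). Tie1, the co-receptor, was at 3.12, 3.07 and 4.59 FPKM in the B16F1 libraries, against 4.59 and 3.37 FPKM in B16F1-CXCL5 libraries 1 and 2. One library of each group was thus at the high level and the other 3 libraries at the low one. The log2 fold change of Tie1 was 0.12 with a 95% interval from -0.36 to 0.60 (limma adjusted p = 0.913), and it was -0.06 without B16F1-CXCL5 library 1. Tek was below Tie1 in each library, with a ratio of 0.269 ± 0.0574 (SD, n = 3) in B16F1 and 0.227 ± 0.0295 (SD, n = 2) in B16F1-CXCL5 tumors (exact two-sided permutation p = 0.4 on the log2 ratio).

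B16F1 library 3 had the highest Tek and Angpt1 values of the 5 libraries. The summed level of 12 pericyte markers was 186 FPKM there, against 109 and 126 FPKM in the other B16F1 libraries and 151 and 157 FPKM in the B16F1-CXCL5 libraries, with 0 of 11 tested markers passing limma and none listed at 0. That rank rested on Des, the desmin of muscle and pericytes, at 78.2 FPKM in B16F1 library 3 and 24.6 to 48.9 FPKM elsewhere. Without Des, left out after its values were seen, the sum was 107 FPKM in B16F1 library 3, against 76.1 to 118 FPKM in the other libraries. Only 3 of the 12 markers were highest in that library, against 4 and 5 in B16F1-CXCL5 libraries 1 and 2. The 7 platelet markers summed to 120 FPKM in B16F1 library 3 and to 39.1 to 93.3 FPKM in the other libraries, with 0 of 2 tested markers passing limma. Gp6 was listed above 0 in B16F1 library 1 alone. Nearly all of the platelet sum was Pf4, a chemokine, at 115 FPKM in B16F1 library 3, where the other 6 markers summed to 4.80 FPKM. Whether platelets or other cells made the Pf4 RNA was not tested. Only 2 of the 7 markers were highest in that library, against 3 in B16F1 library 1. The part of these cells and of skin in the Tek and Angpt1 values was not tested. Tek maps to the plus strand of chromosome 4, at 94739289 to 94874976, and Tie1 to the minus strand of the same chromosome, at 118471191 to 118490061 (GRCm38).

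Cdh5, VE-cadherin, was at 6.91, 7.41 and 8.92 FPKM in the B16F1 libraries, against 10.3 and 8.67 FPKM in B16F1-CXCL5 libraries 1 and 2. B16F1 library 3 lay between the B16F1-CXCL5 libraries, so the groups overlapped. Mean Cdh5 was 7.75 ± 1.05 FPKM (SD, n = 3) in B16F1 and 9.50 ± 1.17 FPKM (SD, n = 2) in B16F1-CXCL5 tumors, with a log2 fold change of 0.27, a 95% interval from -0.07 to 0.60 and a limma adjusted p of 0.651. Cdh5 maps to the plus strand of chromosome 8, at 104101625 to 104144511 (GRCm38).

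**Figure D2:**
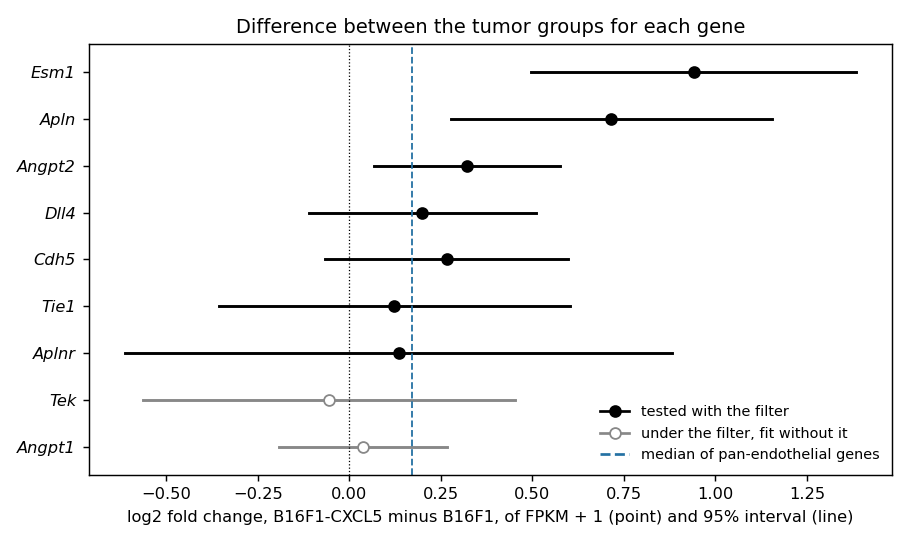
Log2 fold change of B16F1-CXCL5 over B16F1 tumors for each gene (horizontal axis, on log2(FPKM + 1)), with its 95% interval from limma. The unadjusted intervals of Esm1, Apln and Angpt2 lie above 0, the other 6 include 0, and the dashed line marks the median of 0.17 over 17 pan-endothelial genes.

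The order of the levels was alike in both groups apart from Esm1. In B16F1 tumors the FPKM, a level per length, fell from Angpt2 over Cdh5, Esm1, Apln, Aplnr, Tie1, Dll4 and Tek to Angpt1. Cdh5 and Esm1, Esm1 and Apln, and Aplnr and Tie1 overlapped over the B16F1 libraries, and the other neighbours in this order did not. In B16F1-CXCL5 tumors Esm1 came second and was above Cdh5 in 2 of 2 libraries, whereas Cdh5 was above Esm1 in 2 of 3 B16F1 libraries. Cdh5 and Apln, and Aplnr and Tie1, overlapped in B16F1-CXCL5 tumors, and the other neighbours did not.

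The 7 tested genes fell into those highest in B16F1-CXCL5 library 2 and those highest in library 1 of that group. Esm1, Apln and Angpt2 were highest in library 2, and Cdh5, Tie1, Aplnr and Dll4 were highest in library 1. Angpt2 and Dll4 differed between these libraries by factors of only 1.04 and 1.08, so their place rests on small gaps. The pan-endothelial genes were mostly highest in B16F1-CXCL5 library 1, with 10 of 17 there and 2 of 17 in library 2. In B16F1 libraries 1, 2 and 3 the numbers highest were 1, 1 and 3. Their mean log2(FPKM + 1) was 2.47, 2.53 and 2.71 in the B16F1 libraries, against 2.79 and 2.66 in B16F1-CXCL5 libraries 1 and 2, so B16F1 library 3 lay between the values of the other group (exact two-sided permutation p = 0.3). Of the 17, 14 had a positive log2 fold change and 0 passed limma, with a median of 0.17 against -0.01 over all genes tested. For 5 of the 17 both B16F1-CXCL5 libraries lay above all B16F1 libraries, against 10.8% of all genes tested, and for 1 below them. The limma unadjusted p was under 0.05 in the higher direction for 2 of the 17, against 3.57% of all genes tested.

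**Figure D3:**
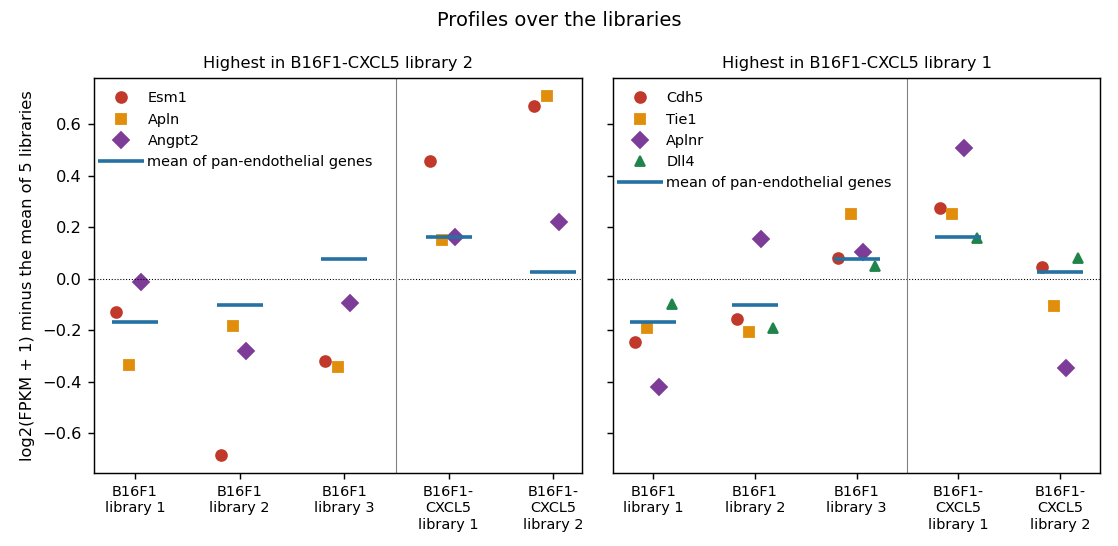
Log2(FPKM + 1) of 7 genes in each library, minus the mean of each gene over the 5 libraries (vertical axis), with the mean of 17 pan-endothelial genes as a bar. Esm1 and Apln in B16F1-CXCL5 library 2 lie above the bar, whereas Cdh5 and Dll4 stay near it in each library.

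Set against these genes of the same library, Esm1 and Apln were still higher in both B16F1-CXCL5 libraries. Esm1 minus the pan-endothelial mean was 0.72, 0.09 and 0.28 on the log2 scale in the B16F1 libraries, against 0.97 and 1.32 in B16F1-CXCL5 libraries 1 and 2. That was a difference of 0.78 (exact two-sided permutation p = 0.2, BH-adjusted 0.6 over 18 such comparisons). Apln minus the same mean was 0.13, 0.21 and -0.12 in the B16F1 libraries, against 0.29 and 0.98 in B16F1-CXCL5 libraries 1 and 2. The difference was 0.56 (exact two-sided permutation p = 0.1, BH-adjusted 0.6), and 0.1 is the smallest p that the 10 splits of 5 libraries allow. Leaving out B16F1-CXCL5 library 2 lowered this difference to 0.21, and leaving out library 1 of that group raised it to 0.90. For Angpt2 the groups overlapped on this scale, with a difference of 0.16 (exact two-sided permutation p = 0.3, BH-adjusted 0.6). The differences of Dll4, Tie1 and Aplnr were 0.04, -0.04 and -0.02, and those of Angpt1 and Tek were -0.12 and -0.21, all 5 with overlapping groups. Cdh5 was above the mean by 0.55 ± 0.04 (SD, n = 3) in B16F1 and by 0.66 ± 0.07 (SD, n = 2) in B16F1-CXCL5 tumors (exact two-sided permutation p = 0.2, BH-adjusted 0.6). As for Esm1 and Apln, the groups of Cdh5 did not overlap on this scale. It was at 0.52, 0.54 and 0.60 in the B16F1 libraries, against 0.71 and 0.61 in B16F1-CXCL5 libraries 1 and 2.

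Within each library Esm1 was 1.17, 0.698 and 0.779 times Cdh5 in B16F1 tumors and 1.22 and 1.70 times Cdh5 in B16F1-CXCL5 tumors. The groups did not overlap, but B16F1 library 1 and B16F1-CXCL5 library 1 nearly met. The log2 ratio differed by 0.75 (exact two-sided permutation p = 0.2, BH-adjusted 0.6). Apln was 0.731, 0.771 and 0.562 times Cdh5 in the B16F1 libraries, against 0.722 and 1.32 times Cdh5 in B16F1-CXCL5 libraries 1 and 2. On that ratio B16F1-CXCL5 library 1 lay within the B16F1 range, and without B16F1-CXCL5 library 2 the difference fell from 0.52 to 0.08 on the log2 scale. Angpt2 was 2.00 ± 0.355 (SD, n = 3) and 2.05 ± 0.315 (SD, n = 2) times Cdh5, with overlapping groups.

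**Figure D4:**
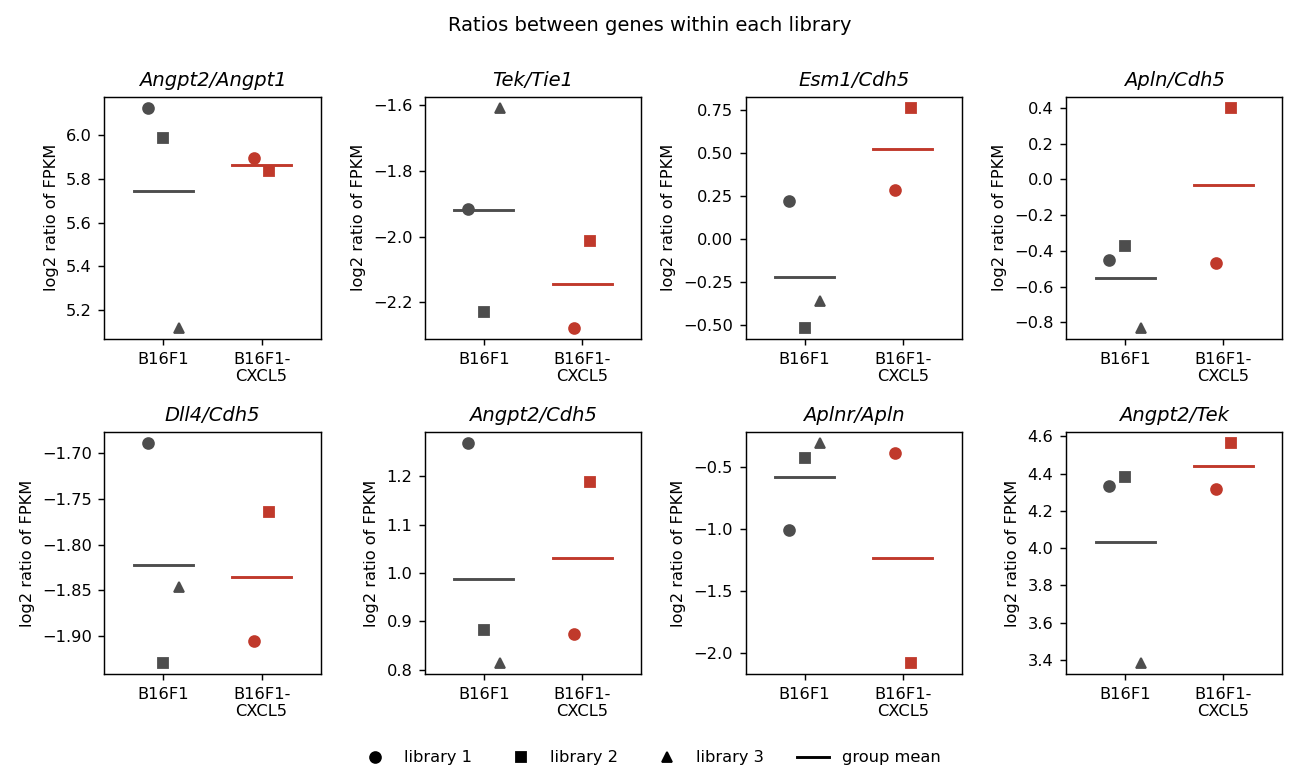
Log2 ratio of FPKM between pairs of genes (vertical axis) within each library, with a point per library and a line at the group mean. Esm1/Cdh5 is the ratio of the 8 whose groups do not overlap, and Apln/Cdh5 and Aplnr/Apln stand apart in B16F1-CXCL5 library 2.

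Neutrophil markers moved with the groups. Of 13, 8 were tested and 5 rose (limma), and their summed level was 16.9 to 43.4 FPKM in B16F1 and 742 to 807 FPKM in B16F1-CXCL5 libraries, with Ngp, Camp, Ltf, Elane and Mpo listed at 0 in some libraries. Their part in the Esm1, Apln and Angpt2 values was not tested. Of 18 hypoxia genes 0 passed limma, 14 had a positive log2 fold change, where 46.6% of all genes tested had one, and the median was 0.21. For 3 of them, Vegfa, Ankrd37 and Ddit4, both B16F1-CXCL5 libraries lay above all B16F1 libraries, where 10.8% of all genes tested did so. The log2 fold changes of these 3 were 0.56, 0.58 and 0.34 (limma adjusted p = 0.462, 0.318 and 0.406). The summed level of the 18 overlapped, at 4630 to 6260 FPKM in B16F1 and 5042 to 5855 FPKM in B16F1-CXCL5 libraries, and was mostly that of the glycolytic genes Pgk1 and Ldha, with log2 fold changes of -0.0047 and -0.03. Fibroblast and pericyte markers also leaned higher, where 46.6% of all genes tested had a positive log2 fold change. Of 7 fibroblast markers 7 had a positive log2 fold change, with a median of 0.45, and 0 passed limma. For 0 of the 7 did both B16F1-CXCL5 libraries lie above all B16F1 libraries, against 10.8% of all genes tested. The limma unadjusted p was under 0.05 in the higher direction for 0 of the 7, against 3.57%. Their summed level was 1097, 914 and 1865 FPKM in B16F1 libraries 1, 2 and 3. In B16F1-CXCL5 libraries 1 and 2 it was 1600 and 1843 FPKM, so the groups overlapped, with none listed at 0. Of 11 pericyte markers tested 10 had a positive log2 fold change, with a median of 0.22. A limma unadjusted p under 0.05 in the higher direction was found for 3 of the 11, against 3.57% of all genes tested. Both B16F1-CXCL5 libraries lay above all B16F1 libraries for 4 of the 11, against 10.8% of all genes tested. The part of hypoxia, fibroblasts and pericytes in the values of the 9 genes was not tested.

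The pathways around the 9 genes gave no call. Of 21 further tip cell genes tested, 0 passed limma, 17 had a positive log2 fold change and the median was 0.19, where 46.6% of all genes tested had a positive one. For 10 of the 21 both B16F1-CXCL5 libraries lay above all B16F1 libraries, against 10.8% of all genes tested, and for 2 below them. The limma unadjusted p was under 0.05 for 5 in the higher direction, against 3.57% of all genes tested, and for 1 in the lower. Kdr is in this list and also in the pan-endothelial list, where its log2 fold change of 0.40 was the highest. Among the 3 most abundant tip cell genes, Mmp14, a membrane-bound matrix protease, was at 120.9 ± 2.55 and 131.9 ± 4.99 FPKM. Mcam, an adhesion molecule of vessels and melanoma cells, was at 54.3 ± 12.2 and 59.6 ± 7.02 FPKM. Fscn1, the actin bundler fascin, went the other way, with 61.3, 78.7 and 87.0 FPKM in the B16F1 libraries, against 34.6 and 18.7 FPKM in B16F1-CXCL5 libraries 1 and 2. Its groups did not overlap, and the difference was -1.52 on the log2 scale (SE 0.28, limma adjusted p = 0.260). Cxcr4, a chemokine receptor of tip cells and of leukocytes, had the lowest adjusted p of this list and is named here after its values were seen. It was at 3.65, 3.09 and 4.41 FPKM in the B16F1 libraries, against 13.8 and 9.94 FPKM in B16F1-CXCL5 libraries 1 and 2, a difference of 1.44 on the log2 scale (SE 0.18, limma adjusted p = 0.0890). Its groups did not overlap, and the difference was larger than that of Esm1. The part of leukocytes in the Cxcr4 values was not tested.

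Of the apelin pathway, 0 of 10 genes passed limma, 6 had a positive log2 fold change and the median was 0.07. Gnai2 and Gnai3, subunits of the inhibitory G proteins that APLNR uses, had log2 fold changes of -0.04 and -0.03, and Furin, a proprotein convertase that acts before the receptor, had 0.21. Of 16 genes of the angiopoietin and Tie pathway 0 passed, 8 had a positive and 8 a negative log2 fold change, and the median was 0.02. Akt1, a kinase activated downstream of TIE2, was at 322.7 ± 9.63 and 320.1 ± 9.51 FPKM, and Itgb1 and Shc1, an integrin chain and a signalling adaptor, had log2 fold changes of 0.14 and 0.18. Of 16 Notch genes 0 passed, 11 had a positive log2 fold change and the median was 0.08. Ncstn, a part of the protease complex that cleaves Notch, had a log2 fold change of 0.12, and Adam10, the sheddase of Notch, had -0.11. Of 15 genes of endothelial junctions 0 passed, 10 had a positive log2 fold change and the median was 0.07. The catenins Ctnnb1, Ctnna1 and Ctnnd1, which bind cadherins in many cell types, had log2 fold changes of 0.04, 0.07 and -0.0034. Among the pan-endothelial genes the most abundant were Eng, Egfl7 and Pecam1, with log2 fold changes of 0.08, -0.18 and 0.20.

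The genes whose profiles over the 5 libraries came closest were measured by the root mean square difference of centred log2(FPKM + 1). Predicted genes, RIKEN clones, ribosomal pseudogenes, genes named only by a sequence number and small RNA genes were left out of the ranking and the counts. Cd37, a tetraspanin of leukocytes, was nearest to Esm1 at 0.11, ahead of Hspb11 and Kit at 0.13 and 0.14. Kit, the receptor of stem cell factor on melanocytes and mast cells, was at 9.57, 7.60 and 10.6 FPKM in B16F1 and at 18.9 and 23.3 FPKM in B16F1-CXCL5 libraries (limma adjusted p = 0.131). Dedd2, a death effector domain protein, was nearest to Apln at 0.022, followed by Gsta4 and Hcst at 0.12 each. The nearest to Angpt2 were Mgea5, Gcnt2 and Wipi1 at 0.027, 0.028 and 0.031, and 263 genes lay within 0.1 of it. The nearest to Cdh5 were Birc3, Ddx3y and Erg at 0.034, 0.036 and 0.039, with 114 genes within 0.1. Erg, an ETS factor of endothelium, was at 0.840, 0.990 and 1.32 FPKM in B16F1 and at 1.48 and 1.21 FPKM in B16F1-CXCL5 libraries.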

How the data were processed

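RNA of primary tumors was sequenced from 5 poly(A) libraries that keep the strand, with RNA integrity numbers of 8.7 to 9.5, per the labels' protocols. The authors deposited 1 table of FPKM values. The tools listed in the submitters' processing notes include TopHat2 2.0.10, Cufflinks 2.2.1 and Bowtie 1.0.0, and the build is GRCm38. No source used here gives the annotation, strand setting or scaling.

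Columns were matched to libraries by title. Differences were tested with limma 3.58.1 (R 4.3.3) on log2(FPKM + 1) with an intensity trend, over the 12533 genes that reached 1 FPKM in 2 or more of 5 libraries, and Benjamini-Hochberg adjustment over all of them. Angpt1 and Tek, under that minimum, were read from the fit of 18751 genes without it. Single values used an exact two-sided permutation test over 10 splits. Depth was estimated from low-value steps of 3059 genes with 1 transcript of 800 to 6000 nt, assuming fragments of 200 nt. FPKM carries no counts, so no count model was used. GENCODE M21 gave positions and lengths. The limma script was tested on simulated data. At most 0.12% of values were identical between libraries.

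Members and lists were chosen with earlier results of these data known. Some genes, such as Kdr, Mcam and Notch3, are in more than 1 list. Genes named are the members, Cxcl5, the 3 most abundant genes of each pathway list and the 3 nearest profiles of Esm1, Apln, Angpt2 and Cdh5; Cxcr4, Des, Pf4 and the hypoxia genes were named after their values were seen. Alternatives changed the pseudocount (0.1, 0.5), filter, scaling, variance model, genes tested, replicate block and libraries.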

Additional observations from a re-analysis of the deposited data

How the results depend on the processing

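No member passed limma's adjusted p of 0.05 in any alternative run. With every library kept, Apln, Aplnr, Esm1, Dll4, Angpt1, Angpt2, Tie1 and Cdh5 kept a positive log2 fold change, and that of Tek turned to 0.016 with library weights and 0.12 with the replicate block. Leaving out 1 library in turn, log2 fold changes ran from 0.79 to 1.06 for Esm1, 0.44 to 0.99 for Apln and 0.25 to 0.38 for Angpt2, and crossed 0 for Aplnr (-0.29 to 0.56), Tie1 (-0.056 to 0.30), Angpt1 (-0.0097 to 0.12) and Tek (-0.18 to 0.12). A lone B16F1-CXCL5 library is there assumed to vary like the B16F1 libraries. The replicate block added the replicate number as a term, and no label ties the numbers to shared mice or days. Deviations of same-numbered libraries from their group means correlated at -0.03 and -0.02. The deviations of the B16F1-CXCL5 libraries mirror each other, so these correlations cannot show whether mice or days were shared. B16F1 library 3, which has no partner, adds nothing to that fit.

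Over all genes, 16 rose and 1 fell. The count higher was 7 (pseudocount 0.1), 6 (mean FPKM from 3 up), 38 (no intensity trend), 29 (library weights) and 42 (replicate block), and 0 to 31 without 1 library. The count lower was 2 with library weights, 4 with the replicate block, 0 without small RNA genes, and 2 to 4 without 1 library. The median of the angiopoietin and Tie list was -0.015 with quantile normalization. That of lymphatic markers was -0.20 over the 3 tested and 0.026 over 7 without a filter, so these medians cover different genes. Dll4 over its reference was -0.0029 against Pecam1 and -0.066 against Cdh5.

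Without 1 library, differences in log2 ratios ran from -0.19 to 0.31 for Angpt2/Angpt1, -0.084 to 0.058 for Dll4/Cdh5, -0.11 to 0.20 for Angpt2/Cdh5 and -1.50 to 0.19 for Aplnr/Apln, and over the reference from -0.38 to 0.34 for Aplnr and -0.15 to 0.076 for Tie1. The cause of these changes was not tested. Dll4 could not be fitted at a mean FPKM of 3, nor Angpt1 and Tek with a filter. Depth limits Angpt1 and, with an estimated 81 to 193 fragments, Tek.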
